A study of Mus musculus with 13 samples.

Results

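The mature miRNAs of the 5 hairpins antisense to Rtl1 (mmu-mir-431, mmu-mir-433, mmu-mir-127, mmu-mir-434 and mmu-mir-136) were followed across 13 small-RNA libraries of mouse brain. Members were all listed pairs of 1 of these hairpins with a mature miRNA, which gave 10 pairs, the 5p and 3p arm of each hairpin, out of 1514 pairs listed in the whole series. TgR mice carry a transgene that overexpresses human acetylcholinesterase-R (hAChE-R), the stress-inducible soluble splice variant of the enzyme that breaks down acetylcholine, and their strain is FVB/N. The transgene is driven by a viral (CMV) promoter, not by that of the mouse gene. FVB/N mice without the transgene were the controls. Small RNA was sequenced from hippocampi (3 TgR mice, 3 FVB/N mice) and prefrontal cortices (PFC, 4 TgR mice, 3 FVB/N mice). No drug treatment of these mice is given in the labels, their age is not given in the sources used here, and the labels do not say whether a hippocampus and a PFC came from the same mouse. Small-RNA counts hold no reading of the transgene itself, so genotype rests on the labels.

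The Dlk1-Dio3 domain is an imprinted region in which protein-coding genes such as Dlk1, Rtl1 and Dio3 are transcribed from the paternal chromosome and long noncoding RNAs, with the miRNAs they carry, from the maternal one. Rtl1 is a gene derived from a retrotransposon and is best known for its role in the placenta. The noncoding RNA on the opposite strand, Rtl1as, carries the 5 hairpins, so their mature miRNAs pair fully with the Rtl1 mRNA and can direct its cleavage. The domain's miRNAs are abundant in brain.

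The 10 mature sequences are shown because the pairing with Rtl1 and the likeness of the arms of a hairpin lie in their letters. All were matched by name to RefSeq (GRCm38.p6). They are written 5′ to 3′, with the seed, bases 2 to 8, in capitals.
miR-431-5p: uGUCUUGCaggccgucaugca
miR-431-3p: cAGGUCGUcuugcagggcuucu
miR-433-5p: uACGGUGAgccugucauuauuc
miR-433-3p: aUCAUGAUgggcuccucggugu
miR-127-5p: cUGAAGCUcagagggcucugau
miR-127-3p: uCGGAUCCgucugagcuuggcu
miR-434-5p: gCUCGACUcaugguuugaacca
miR-434-3p: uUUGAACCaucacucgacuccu
miR-136-5p: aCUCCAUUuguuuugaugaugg
miR-136-3p: aUCAUCGUcucaaaugagucuu

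The 10 seeds were all different, and no other mature miRNA listed in the series and found in RefSeq (1165 of 1384) shared any of them. All 5 hairpins lie on the plus strand of chromosome 12 (GRCm38), within 4942 bases: mir-431 at chr12:109590447-109590537, mir-433 at chr12:109591715-109591838, mir-127 at chr12:109592846-109592915, mir-434 at chr12:109594506-109594599 and mir-136 at chr12:109595327-109595388. Rtl1 runs on the minus strand from 109589193 to 109600330 and, in the GENCODE annotation, has 2 exons. The 5 hairpins lie inside its coding sequence (109590172 to 109595403), which is in 1 exon. Each of the 10 mature sequences was fully complementary to 1 site in the Rtl1 transcript, in its coding sequence. For miR-434-5p the site is tggttcaaaccatgagtcgagc, at bases 1002 to 1023 of the transcript. No other annotated transcript held a full complement of any member, except for Mir3071, the hairpin opposite mir-136. The arms of mir-431 share a run of 10 bases (GUCUUGCAGG) and those of mir-434 a run of 9 (UUUGAACCA), while the median over 454 hairpins with both arms was 4 bases, and 7 of these hairpins (1.54%) share 9 or more.

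Library totals ran from 8769851 to 18385985 counts. The members were well above the limit of detection: 3 counts correspond to 0.158 to 0.313 CPM here (CPM being counts scaled to a library of 1e+06), and the lowest member value in any library was 10.9 CPM. Markers of neurons such as mir-124 and mir-9 summed to between 366112 and 558192 CPM, as brain tissue requires, and the liver marker mir-122 to between 3.85 and 8.74 CPM. Markers of choroid plexus and ependyma summed to 6001, 1669 and 5033 CPM in TgR hippocampus replicates 1 to 3 and to between 1002 and 1379 CPM in the FVB/N hippocampi. Blood markers summed to between 909 and 1106 CPM in the TgR and between 1462 and 1575 CPM in the FVB/N hippocampi. Vessel markers were at 18381 CPM in FVB/N hippocampus replicate 3, against 11686 and 12600 CPM in the other FVB/N hippocampi. The part of these 3 lists in the hippocampal values below was not tested.

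The arms spanned more than 2 orders of magnitude in level, and mir-434 supplied most of the reads. In the FVB/N hippocampi, miR-434-5p was at 4998 ± 1531 CPM (SD, n = 3, as for the other values of this paragraph) and miR-434-3p at 3572 ± 699 CPM, and their ranges over libraries overlapped. Next came miR-136-5p at 1237 ± 430 CPM, miR-433-3p at 1009 ± 84.5 CPM and miR-136-3p at 886 ± 138 CPM, each overlapping its neighbour in this order. miR-127-5p lay between 354 and 484 CPM and miR-127-3p was at 355 ± 8.82 CPM, also with overlapping ranges. At the lower end, miR-431-3p was at 33.3 ± 2.11 CPM and miR-431-5p at 30.1 ± 8.59 CPM, which overlapped, and miR-433-5p was at 13.1 ± 1.96 CPM, below every other arm in every FVB/N hippocampal library. mir-433 was the only hairpin of the 5 with 1 dominant arm: its 5p arm made up 1.03 to 2.33% of its counts over the 13 libraries, while the other 4 hairpins held between 42.1 and 69.9% of theirs in the 5p arm. Level did not follow the order along the chromosome, in which mir-431 with its low arms comes first and mir-434 with its high ones next to last. CPM values of different miRNAs also depend on how well each is captured in library preparation, which was not measured here.

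**Figure D1:**
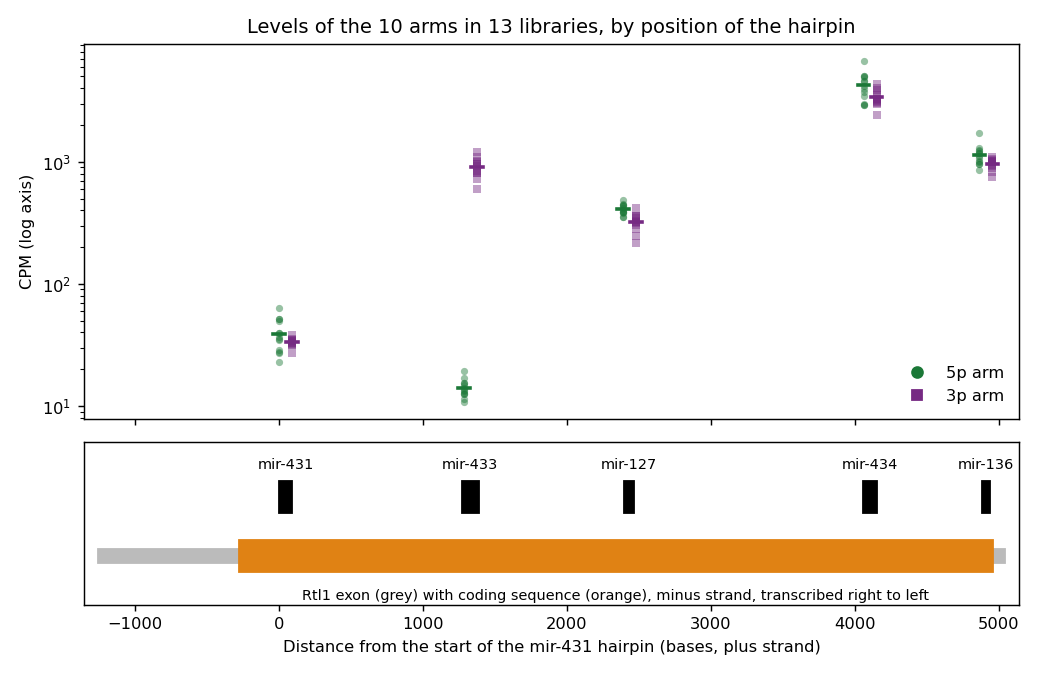
The upper panel plots CPM on a log axis for the 5p arm (circles) and 3p arm (squares) of each hairpin in the 13 libraries, with a short line at the mean, against distance from the start of mir-431; points are set slightly left and right of the hairpin's centre. The lower panel draws the hairpins and the Rtl1 exon and coding sequence to scale. The arms of mir-434 lie highest and miR-433-5p lowest, and all 5 hairpins lie within the coding sequence.

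The first question was whether the members differed between TgR and FVB/N hippocampi. miR-434-5p, the most abundant arm, was the member with the largest difference. It was at 4585, 3715 and 6692 CPM in FVB/N replicates 1 to 3 and at 2987, 2920 and 2913 CPM in TgR replicates 1 to 3. All TgR values lay below all FVB/N values, and also below the lowest of the 7 PFC libraries (3444 CPM), while FVB/N replicate 3 stood highest of all 13 libraries. The log2 fold change was -0.75 (standard error, SE, 0.19, 0.593 times the FVB/N level) and missed the threshold of 0.05 (adjusted p = 0.067, Benjamini-Hochberg, from the quasi-likelihood test of edgeR). It passed in DESeq2 (adjusted p = 0.0048). Over 14 alternatives the log2 fold change lay between -0.96 and -0.53 and the adjusted p between 0.00075 and 0.183. Without FVB/N replicate 3, which also had the highest vessel markers of the hippocampi, the log2 fold change was -0.53 (adjusted p = 0.12), and without FVB/N replicate 2 it was -0.96 (adjusted p = 0.029).

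The partner arm of the same hairpin stood elsewhere. miR-434-3p was at 3197, 3140 and 4378 CPM in the FVB/N and at 3080, 3279 and 3020 CPM in the TgR hippocampi. The groups overlapped, at -0.18 on the log2 scale (SE 0.14, adjusted p = 0.50).

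miR-127-3p was the other member without overlap on the lower side. It was at 362, 357 and 345 CPM in the FVB/N and at 218, 315 and 281 CPM in the TgR hippocampi, a difference of -0.38 on the log2 scale (SE 0.15, adjusted p = 0.23). Its partner miR-127-5p was at 455, 484 and 354 CPM in the FVB/N and at 389, 416 and 380 CPM in the TgR hippocampi. These groups overlapped (log2 fold change -0.12, adjusted p = 0.70).

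On the higher side, miR-433-5p, the rare arm of its hairpin, was at 15.3, 12.6 and 11.5 CPM in the FVB/N and at 19.2, 16.9 and 15.4 CPM in the TgR hippocampi. The groups stood apart by a narrow margin, between 15.3 and 15.4 CPM, and differed by 0.39 on the log2 scale (SE 0.18, adjusted p = 0.29). The dominant arm miR-433-3p was at 1008, 925 and 1094 CPM in the FVB/N and at 805, 838 and 954 CPM in the TgR hippocampi, which overlapped (log2 fold change -0.21, adjusted p = 0.38).

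For mir-136, a single FVB/N library set the level of the 5p arm. miR-136-5p was at 1015, 964 and 1732 CPM in the FVB/N and at 993, 961 and 849 CPM in the TgR hippocampi. FVB/N replicate 3 was again the highest library, and the groups overlapped with or without it (log2 fold change -0.39, SE 0.21, adjusted p = 0.35). Leaving that replicate out gave a log2 fold change of -0.12. miR-136-3p was at 891, 1021 and 745 CPM in the FVB/N and at 943, 1097 and 922 CPM in the TgR hippocampi, where FVB/N replicate 3 was the lowest (log2 fold change 0.16, adjusted p = 0.60).

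The arms of mir-431 were nearly level between the genotypes. miR-431-5p was at 23.1, 27.5 and 39.7 CPM in the FVB/N and at 27.1, 35.6 and 28.7 CPM in the TgR hippocampi (log2 fold change 0.027, adjusted p = 0.96). miR-431-3p ranged from 31.7 to 35.7 CPM in the FVB/N and from 33.1 to 37.8 CPM in the TgR hippocampi (log2 fold change 0.079, adjusted p = 0.82). Both pairs of groups overlapped, and the sign of both fold changes turned in at least 1 alternative.

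In all, edgeR called 0 of the 10 members in the hippocampus, where it called 25 of 726 tested pairs (3.44%). Without FVB/N replicate 3, the calls over all pairs fell to 1. At an unadjusted p under 0.05, 2 members passed, both lower in TgR, against 17.5% of all tested pairs. DESeq2 called 1 member, miR-434-5p, against 6.87% of its tested pairs. The groups stood apart for 3 members, 2 lower (13.2% of all tested pairs) and 1 higher (11.4%), against 24.7% in both directions, so the share among the members was close to the background. The members' median log2 fold change was -0.15, beside -0.0031 over all tested pairs. The sums over all 10 members lay at 11582, 10682 and 15425 CPM in the FVB/N and at 9493, 9915 and 9398 CPM in the TgR hippocampi. The TgR sums were all below the FVB/N sums, but mir-434 carried most of both, and no background was taken for such sums. Of the 10 members, 6 had a log2 fold change below 0 (60%), against 50.1% of all tested pairs. In tissue RNA of this kind, fewer cells of a type and less RNA per cell cannot be told apart.

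**Figure D2:**
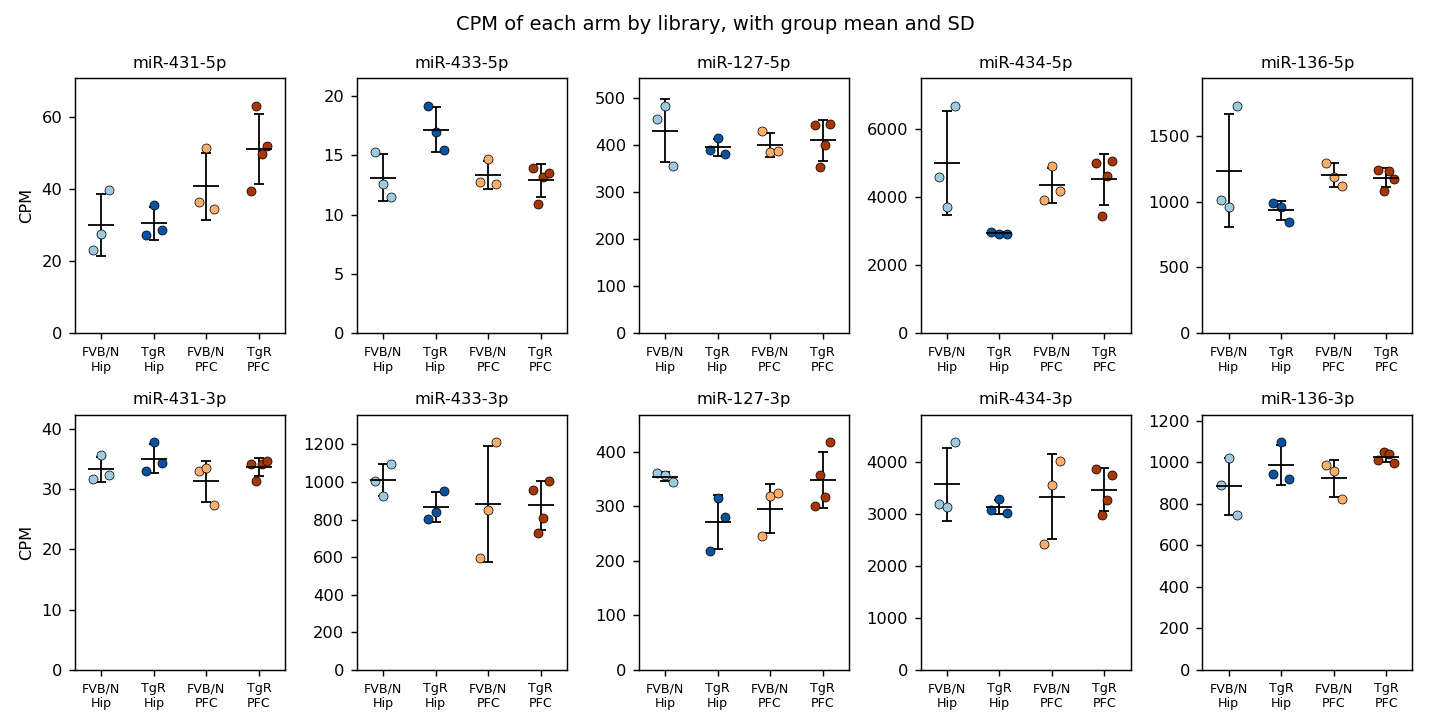
Each panel plots CPM (linear axis from 0) of 1 arm for the libraries of the 4 groups as points, with the group mean and SD as bars; Hip stands for hippocampus. The 3 TgR hippocampal libraries of miR-434-5p sit between 2913 and 2987 CPM, below the other 10 libraries, and FVB/N hippocampus replicate 3 sits highest for both miR-434-5p and miR-136-5p.

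The same comparison in the PFC gave small differences. miR-434-5p was at 3930, 4910 and 4191 CPM in the FVB/N and at 5014, 3444, 4610 and 5058 CPM in the TgR PFC. The groups overlapped, with TgR replicate 2, the library with the fewest counts, at the bottom (log2 fold change 0.031, SE 0.13, adjusted p = 1.00). miR-434-3p was likewise at 2425, 3557 and 4017 CPM in the FVB/N and at 3865, 2981, 3269 and 3754 CPM in the TgR PFC (log2 fold change 0.032). Neither arm of mir-434 kept its sign in every alternative here.

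The largest PFC difference among the members was that of miR-431-5p. It was at 36.4, 51.5 and 34.5 CPM in the FVB/N and at 39.4, 63.2, 49.6 and 51.9 CPM in the TgR PFC, with overlap (log2 fold change 0.31, SE 0.23, adjusted p = 1.00). miR-127-3p was at 245, 319 and 324 CPM in the FVB/N and at 301, 357, 318 and 418 CPM in the TgR PFC, also with overlap (log2 fold change 0.22, SE 0.16). The only member whose groups stood apart was miR-136-3p, at 987, 958 and 823 CPM in the FVB/N and at 1013, 1051, 1043 and 997 CPM in the TgR PFC.

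edgeR and DESeq2 each called 0 of the 10 members in the PFC, where edgeR called 1 of 730 tested pairs (0.137%) and DESeq2 1 of 1427 (0.0701%), and 0 members had an unadjusted p under 0.05, against 2.6% of all tested pairs. The groups stood apart for 1 member, higher in TgR, against 5.07% of all tested pairs and 3.7% on the higher side. Member log2 fold changes lay between -0.076 and 0.31, with a median of 0.031.

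Whether the genotype effect differed between the regions was tested over all 13 libraries as the hippocampal minus the PFC effect. For miR-434-5p the difference was -0.83 on the log2 scale (SE 0.27, adjusted p = 0.19), and for miR-127-3p it was -0.62 (SE 0.24, adjusted p = 0.36). For miR-433-5p it was 0.44 (SE 0.25, adjusted p = 0.72). None passed after adjustment: edgeR and DESeq2 each called 0 of the 10 members, where edgeR called 4 of 751 tested pairs (0.533%) and DESeq2 23 of 779 (2.95%). The 2 members with an unadjusted p under 0.05, miR-434-5p and miR-127-3p, stand beside 8.12% of all tested pairs.

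**Figure D3:**
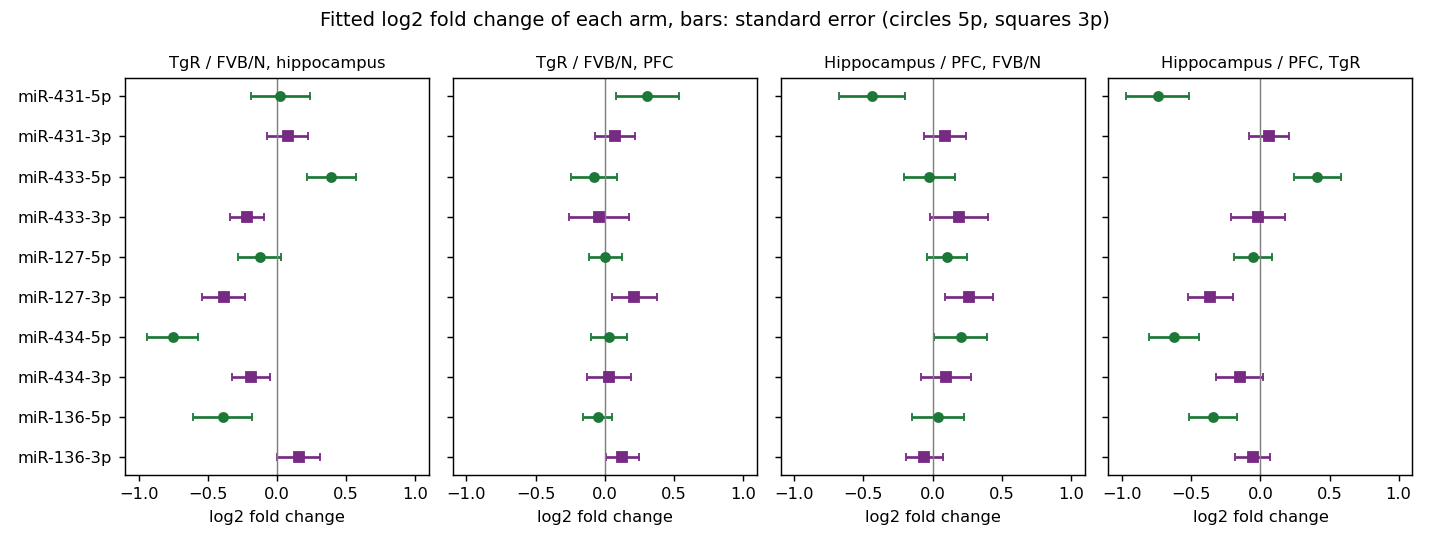
Fitted log2 fold changes of the 10 arms (x axis, with standard error as bars; 5p circles, 3p squares) in 4 comparisons: TgR over FVB/N in hippocampus and in PFC, and hippocampus over PFC in FVB/N and in TgR. miR-434-5p lies at -0.75 in the hippocampal genotype panel and at 0.031 in the PFC panel, and miR-431-5p lies to the left of 0 in both region panels.

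The regions themselves were compared within each genotype. In FVB/N mice miR-431-5p was the member with the largest difference, with the hippocampal values of 23.1, 27.5 and 39.7 CPM set against 36.4, 51.5 and 34.5 CPM in the PFC. The regions overlapped through hippocampus replicate 3 (log2 fold change of hippocampus over PFC -0.44, SE 0.24, adjusted p = 0.35). In TgR mice the hippocampal values of 27.1, 35.6 and 28.7 CPM all lay below the PFC values of 39.4, 63.2, 49.6 and 51.9 CPM (log2 fold change -0.74, SE 0.23, adjusted p = 0.062). DESeq2 called this difference in TgR mice (adjusted p = 0.023). Over 15 alternatives the log2 fold change of miR-431-5p in TgR mice lay between -0.85 and -0.62, with the adjusted p between 0.023 and 0.243. Its partner miR-431-3p had log2 fold changes of 0.089 in FVB/N and 0.061 in TgR mice, with overlap in both.

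miR-434-5p separated the regions in TgR mice, where the hippocampal values between 2913 and 2987 CPM lay below the PFC values between 3444 and 5058 CPM. The log2 fold change was -0.62 (SE 0.18, adjusted p = 0.0504), just short of the threshold, and DESeq2 called it (adjusted p = 0.018). Over 15 alternatives it lay between -0.74 and -0.48, with the adjusted p between 0.018 and 0.131. In FVB/N mice the regions overlapped (log2 fold change 0.20, SE 0.19, adjusted p = 0.64), and the sign turned without hippocampus replicate 3. The difference between these 2 log2 fold changes is the genotype by region value given above.

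In TgR mice miR-136-5p also stood apart, with 993, 961 and 849 CPM in the hippocampus below 1245, 1082, 1234 and 1176 CPM in the PFC (log2 fold change -0.34, SE 0.18, adjusted p = 0.30). miR-433-5p stood apart the other way, with 19.2, 16.9 and 15.4 CPM in the hippocampus above 13.9, 10.9, 13.2 and 13.5 CPM in the PFC (log2 fold change 0.41, SE 0.17, adjusted p = 0.17). miR-127-3p overlapped between the regions in TgR mice (log2 fold change -0.36, adjusted p = 0.22). In FVB/N mice it was the only member to stand apart, with 362, 357 and 345 CPM in the hippocampus above 245, 319 and 324 CPM in the PFC (log2 fold change 0.26, SE 0.17, adjusted p = 0.48).

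Between regions in FVB/N mice, edgeR called 0 of the 10 members, where it called 40 of 751 tested pairs (5.33%), DESeq2 called 0, against 11.2% of its tested pairs, and 0 members had an unadjusted p under 0.05, against 20.2% of all tested pairs. The 1 member that stood apart, higher in the hippocampus, compares with 22.4% of all tested pairs and 12.9% on the higher side. In TgR mice, edgeR called 0 of the 10 members, where it called 60 of 751 tested pairs (7.99%). DESeq2 called 2 members, miR-431-5p and miR-434-5p, against 8.88% of its tested pairs. In TgR mice 4 members had an unadjusted p under 0.05, 1 higher and 3 lower in the hippocampus, against 20.1% of all tested pairs, and 4 stood apart, against 22.5%, of which 1 was higher (10.1% of all tested pairs) and 3 were lower (12.4%). Markers of oligodendrocytes summed to between 1452 and 2951 CPM in the hippocampi and to between 594 and 871 CPM in the PFC. In TgR mice the other brain lists also stood apart between hippocampus and PFC, with neuronal markers between 366112 and 424551 against 432818 and 558192 CPM, and choroid plexus and ependyma markers between 1669 and 6001 against 686 and 1016 CPM. Blood markers lay between 909 and 1106 against 1842 and 2821 CPM and vessel markers between 10703 and 12231 against 13971 and 17513 CPM. In FVB/N mice the neuronal and choroid plexus lists stood apart in the same directions, and the blood and vessel lists overlapped. The part of these lists in the region values was not tested.

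The ratio of the arms was also compared for all 5 hairpins. It needs no scaling between libraries, and it uses the same counts as the levels above, so it is not independent of them. The 5p arm made up 58.9, 54.2 and 60.5% of the mir-434 counts in FVB/N hippocampus replicates 1 to 3 and 49.2, 47.1 and 49.1% in TgR hippocampus replicates 1 to 3. In every TgR hippocampus the 3p arm thus had slightly more counts. In the 10 other libraries the 5p arm had more, with 51.1 to 61.8% in the FVB/N PFC and 53.6 to 58.5% in the TgR PFC. Capture of the arms was not measured, so equal counts need not mean equal amounts in the tissue. The log2 ratio of 5p to 3p counts differed by -0.55 between the genotypes in the hippocampus, where 3 libraries against 3 cannot give an exact permutation p below 0.10, the value obtained. It differed by -0.030 in the PFC. Averaged over both regions, the difference was -0.29 (exact two-sided permutation test of genotype within region, p = 0.069, adjusted p = 0.39 over 216 hairpins in both arm-ratio comparisons).

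For mir-431 the region comparison gave the largest arm-ratio value of the 5 hairpins. Its 5p share was 52.4, 60.6 and 55.7% in the FVB/N PFC and 53.6, 66.8, 59.3 and 59.9% in the TgR PFC, and 45.1, 48.5 and 45.5% in the TgR hippocampi. In the FVB/N hippocampi it was 42.1, 43.5 and 55.0%, with replicate 3 among the PFC values. The log2 ratio differed between hippocampus and PFC by -0.55 in FVB/N and by -0.79 in TgR mice, and by -0.67 on average (exact two-sided permutation test of region within genotype, p = 0.0057, adjusted p = 0.11). The smallest p this test can give is 0.0014.

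For mir-136 the 5p share was 53.3, 48.6 and 69.9% in the FVB/N and 51.3, 46.7 and 47.9% in the TgR hippocampi, which overlapped. In the PFC it was 56.8, 55.3 and 57.7% in the FVB/N and 55.1, 50.7, 54.2 and 54.1% in the TgR libraries, which stood apart by a narrow margin. The genotype difference in log2 ratio averaged -0.35 (exact permutation p = 0.029, adjusted p = 0.26) and was -0.16 without FVB/N hippocampus replicate 3. For mir-433 the 5p share averaged 1.29 ± 0.232% in the FVB/N and 1.97 ± 0.369% in the TgR hippocampi (SD, n = 3), which stood apart, and 1.61 ± 0.539% (n = 3) and 1.46 ± 0.116% (n = 4) in the FVB/N and TgR PFC. Its genotype difference averaged 0.26 (exact permutation p = 0.23, adjusted p = 0.66), and that of mir-127 0.041 (exact permutation p = 0.79, adjusted p = 0.91).

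After adjustment, 0 of the 5 hairpins and 0 of all 216 passed in either arm-ratio comparison. With 0.0014 as the smallest p over 432 tests, a single hairpin at that p could not pass, and many would have to reach it together, so the absence of calls was largely set by the design. At an unadjusted exact permutation p under 0.05, 1 of the 5 passed for genotype (mir-136), against 11.1% of all hairpins, and 1 for region (mir-431), against 16.7%. In the hippocampus the genotypes stood apart for 2 of the 5 hairpins, mir-434 and mir-433, against 21.8% of the 216, and in the PFC for 1 (mir-136), against 1.85%. The regions stood apart in TgR mice for 2, mir-431 and mir-434, against 22.2%, and in FVB/N mice for 0, against 9.72%. By the size of its region difference, mir-431 ranked 5 of 216 in TgR and 27 of 216 in FVB/N mice, and mir-434 ranked 41 and 191. By the size of the genotype difference in the hippocampus, mir-433 ranked 32, mir-434 42, mir-136 50, mir-127 98 and mir-431 205 of 216.

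**Figure D4:**
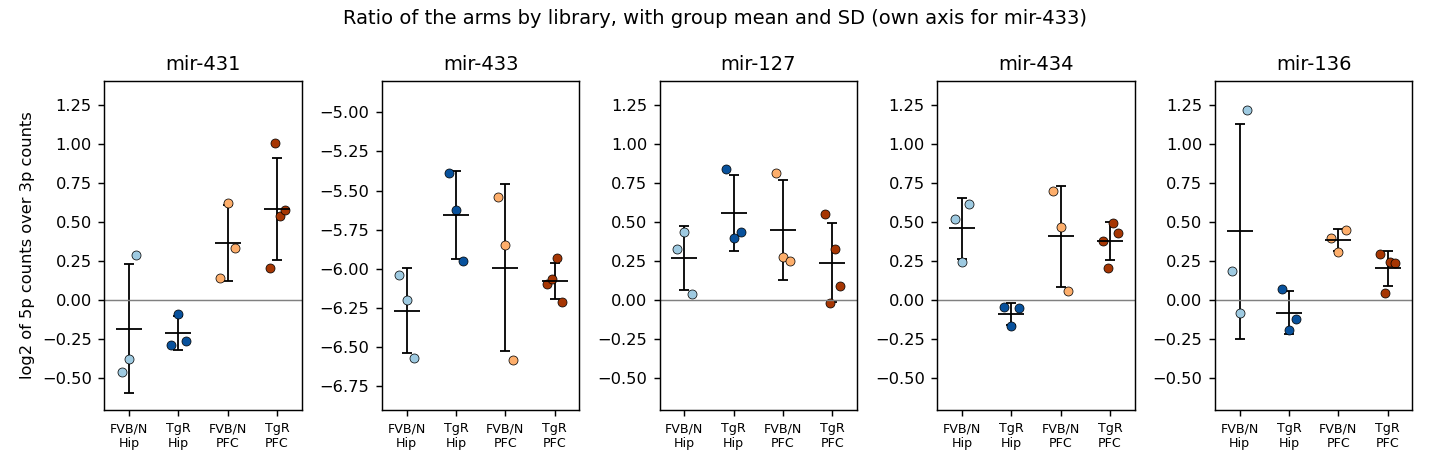
Each panel plots the log2 of the ratio of 5p to 3p counts of 1 hairpin for every library of the 4 groups, with the group mean and SD; 0 marks equal counts, and mir-433 has its own axis. The 3 TgR hippocampal libraries of mir-434 lie just below 0 and the other 10 above it, and mir-431 lies above 0 in all 7 PFC libraries and in 1 of 6 hippocampal ones.

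Other miRNAs of the Dlk1-Dio3 domain were counted from a list of hairpins by name, of which 81 pairs from 45 hairpins were tested. In TgR against FVB/N hippocampi their median log2 fold change was -0.15, beside -0.0031 over all tested pairs. Below 0 were 53 of 81 (65.4%), against 50.1% of all tested pairs. edgeR called 2 lower and 0 higher, against 3.44% of all tested pairs. DESeq2 called 10 of these 81 pairs, against 54 of the 726 pairs tested in edgeR. At an unadjusted p under 0.05 there were 6 higher and 12 lower, against 17.5% of all tested pairs in both directions. The groups stood apart for 7 higher and 17 lower, against 24.7% of all tested pairs in both directions. The 2 called were miR-412-5p (log2 fold change -0.73, SE 0.15, adjusted p = 0.045) and miR-370-3p (-0.79, SE 0.17, adjusted p = 0.045). miR-411-5p came next at -0.50 (adjusted p = 0.056). The 16 pairs of the list near Meg3 and in Rian had a median of -0.19 and the 65 pairs of the distal part one of -0.13. In the PFC the median of the list was -0.0028 and 0 were called by either tool. There, 2 had an unadjusted p under 0.05, against 2.6% of all tested pairs. For the difference between regions in the genotype effect the median was -0.084 and 0 were called by either tool. In that comparison 5 had an unadjusted p under 0.05, against 8.12% of all tested pairs.

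Between hippocampus and PFC in FVB/N mice, the list had a median log2 fold change of -0.14. edgeR called 0 of its pairs, against 5.33% of all tested pairs, and DESeq2 called 3 of the 81, against 84 of the 751 pairs tested in edgeR. At an unadjusted p under 0.05 there were 1 higher and 7 lower, against 20.2% of all tested pairs. In TgR mice the median was -0.24, with 66 of 81 (81.5%) below 0, against 48.6% of all tested pairs. edgeR called 4 lower and 0 higher in TgR mice, against 7.99% of all tested pairs. DESeq2 called 6 of the 81 there, against 75 of the 751 pairs tested in edgeR. At an unadjusted p under 0.05 there were 0 higher and 15 lower in TgR mice, against 20.1% of all tested pairs. Among the 4 called by edgeR were miR-379-5p (-0.63, adjusted p = 0.020), miR-541-5p (-0.57, adjusted p = 0.029) and miR-369-5p (-0.63, adjusted p = 0.041). The members' own medians in these comparisons were 0.095 and -0.10, beside -0.020 and 0.017 over all tested pairs. In TgR mice the members' median turned to 0.024 with library size only and to 0.034 without a filter. The median of all pairs was then 0.14 and 0.16. The genotype comparisons of a region and the region comparisons of a genotype share libraries, so these values are not independent of each other.

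The miRNAs whose course over the 13 libraries was most like that of the members' more abundant arms were sought among 398 pairs at 10 CPM or more. The measure was the root mean square difference between log2 CPM values centred over the libraries, for which smaller is more alike. It is also small where both courses vary little, so it does not by itself show a shared direction of change. miR-30b-3p (0.0966), miR-139-5p (0.0981), miR-30d-5p (0.125), miR-1843a-5p (0.129) and miR-708-3p (0.136) came closest, against a median of 0.317 over all compared pairs, and none of the 5 is from the Dlk1-Dio3 list. The 5 member arms themselves differed from their own mean course by between 0.145 (miR-136-5p) and 0.340 (miR-431-5p). The 5 miRNAs were picked for their small distance, so both sets of distances are not compared.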

How the data were processed

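Total RNA from hippocampus and PFC was sequenced as small RNA. The authors aligned the reads to miRBase with miRExpress and deposited, for each library, raw read counts for pairs of a hairpin with its mature miRNA. Pairs not listed were taken as 0. Library totals (8769851 to 18385985 counts) leave counting error small for the abundant members, whereas n = 3 or 4 mice limits the precision. Counting error is largest for miR-433-5p, at 104 to 359 counts a library, and matters for its narrow margin between the hippocampal groups. Without molecular identifiers, counting error understates the true error.

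Groups and replicate numbers came from the sample titles. The deposited data of the FVB/N PFC also carry another numbering, so its replicate numbers are uncertain. The members and gene lists were chosen with earlier results of these data known. Named miRNAs are all member arms, the 5 pairs most like them and up to 3 pairs of the Dlk1-Dio3 list with the smallest adjusted p in each comparison. Names of that list with no counts (mir-3071, mir-1906-1, mir-453 and mir-496b) were not used.

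edgeR 4.0.16 in R 4.3.3 was run with TMM scaling, the default filterByExpr minimum (10 counts), the quasi-likelihood test and Benjamini-Hochberg adjustment over all tested pairs, with a threshold of 0.05. Genotype was tested within each region, and regions and the genotype by region difference were tested over 13 libraries in 4 groups. Standard errors are the size of the log2 fold change over the square root of F. All 10 members passed the filter in every fit. Printed CPM were scaled by TMM over all 13 libraries. A group stood apart when all its values lay beyond those of the other. Arm ratios used 0.5 added counts and exact permutation tests over libraries with 700 assignments, adjusted over 432 tests, for hairpins with at least 10 counts in each arm in every library. DESeq2 1.42.0, other scalings and filters, the replicate number as a block and each replicate left out were alternatives. Scripts were tested on simulated counts. Sequences and positions came from RefSeq and GENCODE M21 on GRCm38.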

Additional observations from a re-analysis of the deposited data

How the results depend on the processing

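With 3 or 4 mice a group, small differences cannot be told from the spread between mice, and reads carry no molecular identifiers. Of 780 log2 fold changes of single arms under alternatives, 692 kept direction and side of the threshold, 13 became called and 75 changed sign, 48 of these with 1 library left out. No sign change came from a value larger than 0.205 in size.

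The count of members called in the hippocampal genotype comparison was 1 instead of 0, by miR-434-5p, with TMM factors from pairs outside the Dlk1-Dio3 list (adjusted p = 0.042), without a filter (0.00075), in DESeq2 (0.0048) and with all 13 libraries in 1 fit (0.048), and 0 to 1 with each replicate left out, 1 only without FVB/N hippocampus replicate 2. Between regions in TgR mice it was 1, by miR-434-5p, with RLE size factors in edgeR (adjusted p = 0.033), TMM factors from outside the list (0.025) and a single row per mature miRNA (0.040), and 2, by miR-431-5p and miR-434-5p, in DESeq2 and with TgR libraries only (0.042 and 0.018), and 0 to 1 with each replicate left out, 1 only without TgR PFC replicate 2. The causes were not tested. In the other 3 comparisons no alternative called a member.

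Among the log2 fold changes given by name, miR-431-5p in the hippocampal genotype comparison was -0.049 with TMM factors from outside the list, and -0.19 to 0.23 with each replicate left out, where miR-431-3p was -0.0087 to 0.11. In the PFC genotype comparison miR-434-5p was -0.0061 with library size only and -0.020 to 0.12 with each replicate left out, where miR-434-3p was -0.14 to 0.17. Between regions in FVB/N mice miR-434-5p was -0.061 to 0.32 and miR-431-3p -0.022 to 0.17. Of the arm ratios, the genotype value of mir-127 was -0.029 to 0.13, the region value of mir-433 -0.076 to 0.18 and that of mir-136 -0.31 to 0.017 with each replicate left out; adding 1 count changed no sign.

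Correlations of same-numbered libraries' deviations ran from -0.20 to 0.39 between FVB/N and TgR libraries of a region, which are different mice. Between hippocampus and PFC libraries of a genotype they ran from -0.13 to 0.38. Libraries with different numbers were not set beside them, so these values cannot decide whether hippocampus and PFC came from the same mice. With the replicate number as a block, no member was called, miR-434-5p was at -0.72 in the hippocampal (adjusted p = 0.099) and -0.024 in the PFC genotype comparison, and calls over all pairs went from 25 to 9 in the hippocampus and from 4 to 10 for genotype by region.

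Over all pairs, calls in the hippocampus were 63 without a filter, 56 in DESeq2 and 1 to 28 with each replicate left out, with 1 without FVB/N replicate 3, 12 without FVB/N replicate 1 and 9 without TgR replicate 3. For genotype by region they were 13 without a filter and 23 in DESeq2, and for regions in FVB/N mice 69, 84 and, with FVB/N libraries only, 24. With each replicate left out they were 2 to 8 for genotype by region (2 without FVB/N PFC replicate 1, TgR PFC replicate 4, FVB/N hippocampus replicate 3 or TgR hippocampus replicates 1 or 3, 8 without TgR hippocampus replicate 2), 23 to 60 in FVB/N mice (23 without hippocampus replicate 2) and 29 to 62 in TgR mice (39 without PFC replicate 1, 29 without PFC replicate 3 or hippocampus replicate 1, 31 without hippocampus replicate 3). Scaling by library size only moved the median log2 fold change of all pairs by 0.14 for genotype by region and by 0.13 for regions in TgR mice, and no filter by 0.10 and 0.14.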
